A study of Mus musculus with 5 samples.

Results

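The 7 complex I subunits that the mouse mitochondrial genome encodes, mt-Nd1, mt-Nd2, mt-Nd3, mt-Nd4l, mt-Nd4, mt-Nd5 and mt-Nd6, were followed by cell type and mouse in single-cell RNA sequencing of pancreatic islets. They were taken by their gene symbols, and all 7 were present among the 32285 genes of each of the 5 deposited count matrices. The animals were NOD.SCID mice (strain NOD.Cg-Prkdcscid/J). All 5 carried the scid mutation of Prkdc on the NOD background which leaves them without mature T and B cells. HC mice 1 and 2 (7 and 9 weeks old) received a diet with 20% HC, hydrolyzed casein. Chow mice 1, 2 and 3 (8, 10 and 10 weeks old) received chow. Chow mouse 1 lay between the HC mice in age, and the other chow mice were older than both. The islets of each mouse were picked by hand, dissociated with trypsin and made into a single library, so the mouse is the replicate. HC mouse 2 carries a title that reads chow-fed, whereas its diet label and the series design place it in the HC group, where it was kept.

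Complex I, NADH dehydrogenase, is the entry point of the respiratory chain: it passes electrons from NADH to ubiquinone and pumps protons across the inner mitochondrial membrane. The proteins of the mt-Nd genes form the core of its membrane arm, and the remaining subunits are encoded in the nucleus. In beta cells respiration raises the ATP level that closes potassium channels and starts insulin secretion. Mitochondrial genes are transcribed as long polycistronic RNAs from the heavy-strand and the light-strand promoter. These RNAs are cut into separate messages mostly at the tRNAs between them. Neighbouring messages cut from the same RNA thus start out in equal number and diverge afterwards through processing and decay. This does not hold for mt-Nd6 and mt-Nd5, which come from opposite strands.

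In GRCm38 coordinates mt-Nd1 lies at chrM:2751-3707, mt-Nd2 at chrM:3914-4951, mt-Nd3 at chrM:9459-9806, mt-Nd4l at chrM:9877-10173, mt-Nd4 at chrM:10167-11544 and mt-Nd5 at chrM:11742-13565, all on the plus strand of the reference. mt-Nd6, at chrM:13552-14070, is the member on the minus strand and the sole protein gene of the light-strand transcript. Each is a single exon without introns. The ends of the genes are printed because the library chemistry reads the 3 prime end of a message, and because 2 pairs of members share bases there. The coding sequences of mt-Nd4l and mt-Nd4 overlap by 7 bases in different frames, and in mammals they stay on a single bicistronic message. mt-Nd5 and mt-Nd6 overlap by 14 bases on opposite strands. In the following 4 sequences (transcripts of GENCODE vM21 on GRCm38, 40 bases each, 5′ to 3′ on the gene's own strand) capitals mark the shared bases.
mt-Nd4l end, chrM:10134-10173, plus strand: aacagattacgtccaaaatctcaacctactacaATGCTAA
mt-Nd4 start, chrM:10167-10206, plus strand: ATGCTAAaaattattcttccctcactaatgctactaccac
mt-Nd5 end, chrM:13526-13565, plus strand: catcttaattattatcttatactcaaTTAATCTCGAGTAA
mt-Nd6 end, chrM:13552-13591, minus strand: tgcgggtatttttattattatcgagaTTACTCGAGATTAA
The remaining 4 ends carry in capitals the bases after the last sense codon. mt-Nd1, mt-Nd2 and mt-Nd3 encode a whole stop codon. mt-Nd4 ends on a single T, which becomes a stop codon when the message receives its poly(A) tail.
mt-Nd1 end, chrM:3668-3707, plus strand: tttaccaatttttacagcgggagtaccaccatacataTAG
mt-Nd2 end, chrM:4912-4951, plus strand: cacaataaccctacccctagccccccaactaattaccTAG
mt-Nd3 end, chrM:9767-9806, plus strand: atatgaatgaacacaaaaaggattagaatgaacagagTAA
mt-Nd4 end, chrM:11505-11544, plus strand: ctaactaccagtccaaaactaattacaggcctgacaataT

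The members differ in length and in A content, which bear on where an oligo(dT) primer can sit. mt-Nd4l, the shortest, has 297 bases, and mt-Nd5, the longest, has 1824. Runs of 6 or more A inside the gene number 3 in mt-Nd2, 2 in mt-Nd4, 2 in mt-Nd5 and 1 in mt-Nd1, and there are 0 in mt-Nd3, mt-Nd4l and mt-Nd6. mt-Nd6 stands apart in composition, with 22.2% A and 28.1% G, whereas the other 6 have 29.97% to 36.9% A and 8.00% to 11.6% G. Nuclear copies of mitochondrial DNA in the same annotation match some members almost base for base. The pseudogene Gm10222 (chromosome 1, 24612407 to 24612700, minus strand) is identical to mt-Nd4l over 294 bases, Gm28439 beside it is identical to mt-Nd4 over 876 bases, and Gm28438 matches mt-Nd3 at 99.7% of 345 bases. The copy of mt-Nd4 spans 63.6% of that gene, and the copy of mt-Nd3 holds 1 mismatch. Reads that fall wholly inside an identical stretch cannot be told by sequence from reads of the copy, and none of these pseudogenes has a row in the matrices, so the counts of mt-Nd3, mt-Nd4l and mt-Nd4 are uncertain to that extent.

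Of 26474 barcodes 22758 were kept as cells, with 5147 to 6958 median UMIs (unique molecular identifiers, counts of captured molecules) per mouse; the libraries held 28722244 to 39624978 UMIs. The libraries fell into 2 sets by the first letters of their titles, FUN (HC mouse 1, chow mouse 1) and SKY (HC mouse 2, chow mice 2 and 3), and the labels do not say what these letters mark. Between pairs of libraries the chi-square of the beta-cell sums, divided by its degrees of freedom, was 5.42 to 6.06 within a set and 19.4 to 36.6 across sets, so diet values are also given within each set. Over the 5 libraries 80 barcode sequences occurred more than once. Beta, alpha, delta, macrophage and endothelial cells had at least 20 cells in every mouse and were tested; stromal cells, with 17 cells in HC mouse 1, were not. The clusters were named from fixed marker lists, and hormone messages of other cells were present in each type: insulin messages made up 10.1% to 32.3% of UMIs in cells named delta, 13.2% to 26.8% in macrophages, 0.960% to 2.70% in alpha and 0.645% to 2.42% in endothelial cells, against 61.0% to 68.8% in beta cells.

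Levels are CPM, the UMIs of a gene per 1000000 UMIs of the same cells, a share of all captured RNA, so a higher share of a member and a lower share of other RNA cannot be told apart. The 7 members together came to 5834 ± 1284 CPM in macrophages, 5202 ± 432 in endothelial cells, 5100.3 ± 1142 in alpha cells, 4681 ± 1181 in beta cells and 4434 ± 866 in delta cells (SD, n = 5 mice). No step in that order exceeded the SDs of the cell types on its sides. Per kilobase of gene, mt-Nd4 was the most abundant member in beta cells (1407 CPM per kilobase), followed by mt-Nd2 (1172), mt-Nd1 (963), mt-Nd4l (689), mt-Nd3 (354), mt-Nd5 (144) and mt-Nd6 (26.8). The same 7 had the same order in alpha and delta cells. In macrophages mt-Nd1 (1476) passed mt-Nd2 (1439), and in endothelial cells mt-Nd2 (1419.5) and mt-Nd1 (1365) passed mt-Nd4 (1251). Since the chemistry counts ends and not length, this scale serves only to set genes of different length side by side.

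The mice differed in these messages more for some members than for others. In beta cells the coefficient of variation over the 5 mice was 30.9% for mt-Nd2, 30.9% for mt-Nd1, 30.01% for mt-Nd4l and 27.6% for mt-Nd4, but 11.0% for mt-Nd5. mt-Nd5 ranged from 7.72% in delta to 13.7% in endothelial cells over the tested types. It varied least of the members in beta, alpha, delta and macrophage cells. In endothelial cells mt-Nd1 (9.45%) and mt-Nd4 (10.8%) varied less. The protein of mt-Nd5 is the most distal of the proton-pumping subunits.

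Whether the HC diet changed the complex I messages was asked within each cell type. mt-Nd1, mt-Nd2, mt-Nd3 and mt-Nd4 averaged higher in HC mice than in chow mice in each of the 5 tested types, and none of these differences passed the test. edgeR called 0 of 7 members in beta cells, where 0.00836% of the 11968 tested genes were called, 0 of 7 in alpha (0.0555% of 10815) and 0 of 7 in delta cells (0% of 11483). It called 0 of 6 in macrophages (0.0804% of 2487) and 0 of 6 in endothelial cells (0.0449% of 4457), where mt-Nd6 had too few counts to be tested for diet. At an unadjusted edgeR p under 0.05 there were 4 members in beta, 4 in alpha and 2 in delta cells. Macrophages had 1 and endothelial cells 0. The share of all tested genes under that unadjusted cut is not given, here or below, so such counts cannot be read as an excess. DESeq2 also called 0 members in each type. The lowest edgeR adjusted p of a member was 0.594, for mt-Nd3 in alpha cells.

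mt-Nd1, the subunit at the entry of the ubiquinone channel, had in beta cells 1354 and 805 CPM in HC mice 1 and 2, against 1061, 675 and 715 in chow mice 1, 2 and 3. HC mouse 1 was the highest and HC mouse 2 lay below chow mouse 1, so the groups overlapped; the log2 fold change was 0.32 ± 0.14 (SE; edgeR adjusted p = 0.950). mt-Nd2, a proton-pumping subunit, had 1786 and 1169 CPM in the HC mice, against 1314, 774 and 1038 in the chow mice (log2 fold change 0.43 ± 0.14; edgeR adjusted p = 0.882). HC mouse 2 was again under chow mouse 1. mt-Nd4, also proton-pumping, had 2738 and 1722 CPM in the HC mice, against 2225, 1473 and 1534 in the chow mice (log2 fold change 0.28 ± 0.12; edgeR adjusted p = 0.950). mt-Nd5 had 277 and 261 CPM in the HC mice, against 301, 253 and 223 in the chow mice, with a log2 fold change of -0.0029 ± 0.10 (edgeR adjusted p = 0.999), and its HC values lay inside the chow range.

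Among the small subunits mt-Nd3 was the one whose mice separated. In beta cells it had 159 and 129.9 CPM in the HC mice, against 112, 97.3 and 117 in the chow mice (log2 fold change 0.33 ± 0.10; edgeR adjusted p = 0.882), and its lower HC mouse was above the highest chow mouse. In the same cells 6.17% of the 11968 tested genes had both HC mice above all chow mice, and mt-Nd3 was the only 1 of the 7 members to do so. mt-Nd4l had 110.2 and 269 CPM in the HC mice, against 225, 238 and 181 in the chow mice (log2 fold change -0.18 ± 0.59; edgeR adjusted p = 0.999): the HC mice were the lowest and the highest of the 5. mt-Nd6, counted at 159 to 455 UMIs per mouse, had 10.3 and 12.7 CPM in the HC mice, against 15.9, 18.02 and 12.7 in the chow mice (log2 fold change -0.49 ± 0.23; edgeR adjusted p = 0.950). HC mouse 1 was the lowest, while HC mouse 2 and chow mouse 3 were nearly equal.

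**Figure D1:**
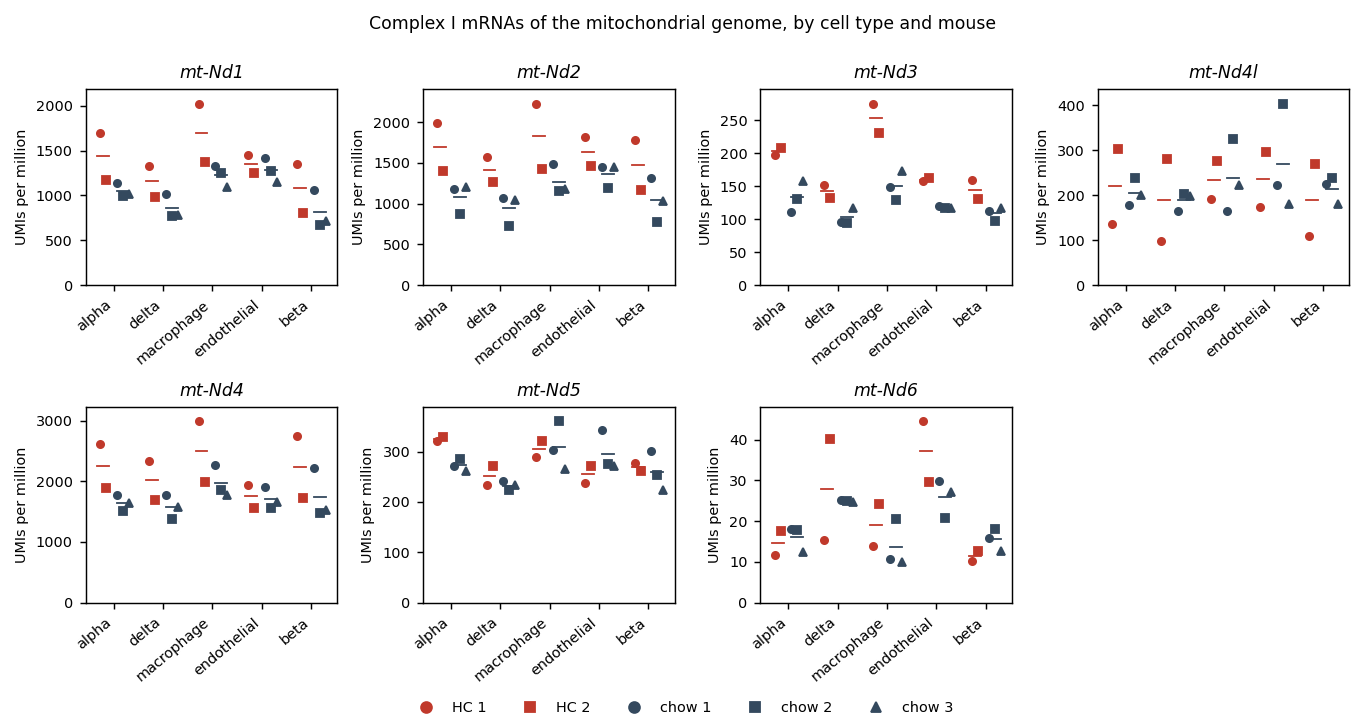
Level of each member in CPM (vertical axes, from 0) in alpha, delta, macrophage, endothelial and beta cells. Each point is 1 mouse (red HC, dark blue chow) and each line a group mean. HC mouse 1 (red circle) had the highest mt-Nd4 in all 5 types, with 2738 in beta cells, and the lowest mt-Nd4l in all but macrophages, with 110.2 in beta cells.

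In alpha cells mt-Nd3 had 197 and 208 CPM in the HC mice, against 111, 129.9 and 158 in the chow mice (log2 fold change 0.51 ± 0.14). mt-Nd2 had 1990.2 and 1399.8 CPM in the HC mice, against 1177, 873 and 1208 in the chow mice (log2 fold change 0.54 ± 0.17; edgeR adjusted p = 0.646). For both genes, and for mt-Nd1, mt-Nd4 and mt-Nd5, the HC mice were above all chow mice in alpha cells. Thus 5 of 7 members separated there, where 19.7% of the 10815 tested genes did. Among the other mitochondrial messages mt-Co2, mt-Atp6, mt-Co3 and mt-Cytb separated there too, and mt-Co1 and mt-Atp8 did not. In delta cells mt-Nd2 and mt-Nd3 separated in that direction (2 of 7; 19.5% of 11483 genes). Macrophages had mt-Nd1 and mt-Nd3 (2 of 7; 16.6% of 2487), and endothelial cells mt-Nd2 and mt-Nd3 (2 of 7; 8.59% of 4457). No member had both HC mice below all chow mice in beta (0 of 7; 2.94% of genes), alpha (0 of 7; 4.97%), delta (0 of 7; 2.47%), macrophage (0 of 7; 3.9%) or endothelial cells (0 of 7; 8.21%). Of the other mitochondrial messages mt-Atp6 and mt-Co3 had both HC mice above all chow mice in delta cells, and mt-Atp6 and mt-Cytb in endothelial cells. None of those messages did in beta cells or macrophages. mt-Nd3 had both HC mice above all chow mice in each of the 5 tested types. These types share the same 5 libraries and are no independent repeats. Among macrophages the summed beta-cell markers (10 genes) were 141916 to 142719 CPM in the HC mice, against 231332 to 284628 in the chow mice. In endothelial cells they were 6973 to 7738 in the HC mice, against 12548 to 25139.5 in the chow mice. How this beta-cell RNA came to be counted in these cells, and its part in the diet differences, was not tested. In delta cells the level of mt-Nd3 was 152 and 132 CPM in the HC mice, against 95.2, 94.8 and 118 in the chow mice. In macrophages it was 275 and 231 CPM in the HC mice, against 148, 129 and 173 in the chow mice. Endothelial cells had 158 and 162 CPM in the HC mice, against 119.8, 116 and 117 in the chow mice, with narrow groups on each side of the gap. In the untested stromal cells the groups overlapped, with 197 and 180.0 CPM in the HC mice, against 183, 158 and 140.1 in the chow mice.

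Across types the log2 fold changes of mt-Nd1 were 0.32 in beta, 0.36 in alpha, 0.28 in delta, 0.32 in macrophage and 0.062 in endothelial cells. Those of mt-Nd2 were 0.43 in beta, 0.54 in alpha, 0.44 in delta, 0.37 in macrophage and 0.26 in endothelial cells, and those of mt-Nd4 0.28 in beta, 0.36 in alpha, 0.21 in delta, 0.19 in macrophage and 0.034 in endothelial cells. Endothelial cells had the smallest values of all 3. With age as a term mt-Nd1 turned to -0.068 in delta and -0.052 in endothelial cells, and mt-Nd4 to -0.10 in delta, -0.11 in macrophage and -0.12 in endothelial cells. Without HC mouse 1 the same values turned too, mt-Nd1 to -0.049 in delta and -0.021 in endothelial cells and mt-Nd4 to -0.13 in delta, -0.076 in macrophage and -0.10 in endothelial cells; mt-Nd4 in endothelial cells was also -0.015 without chow mouse 2 and -0.0047 with library set as a term. For mt-Nd5 they were -0.0029 in beta, 0.16 in alpha, -0.046 in delta, -0.15 in macrophage and -0.22 in endothelial cells, on both sides of 0. The median over the tested members was 0.28 in beta, 0.36 in alpha, 0.21 in delta, 0.25 in macrophage and 0.048 in endothelial cells, beside medians of all tested genes that were within 0.01 of 0. The 6 other mitochondrial messages had medians of 0.25, 0.32, 0.18, 0.20 and 0.19 in the same order of types, all 6 above 0 in each type and none of them called by edgeR.

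**Figure D2:**
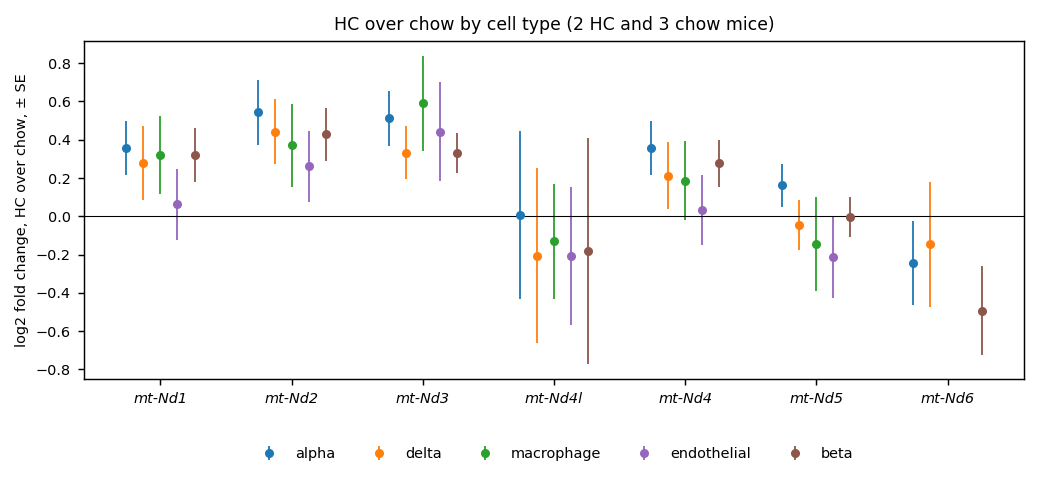
Fitted log2 fold change, HC over chow (vertical axis), of each member (horizontal axis) in 5 cell types (colours), with bars of 1 SE from edgeR fits to 2 HC and 3 chow mice. mt-Nd1, mt-Nd2, mt-Nd3 and mt-Nd4 lie above 0 in all 5 types, mt-Nd1 at 0.062 and mt-Nd4 at 0.034 in endothelial cells. mt-Nd4l has the widest bars, and none passed an adjusted p of 0.05.

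Within each set of libraries the log2 ratio of the HC level to the chow level in beta cells was 0.35 in the FUN libraries and 0.21 in the SKY libraries for mt-Nd1, 0.44 in the FUN libraries and 0.37 in the SKY libraries for mt-Nd2 and 0.51 in the FUN libraries and 0.28 in the SKY libraries for mt-Nd3. For mt-Nd4 it was 0.30 in the FUN libraries and 0.20 in the SKY libraries. These 4 were positive in both sets. mt-Nd4l went opposite ways, with -1.03 in the FUN libraries and 0.36 in the SKY libraries, and mt-Nd5 did so too, with -0.12 in the FUN libraries and 0.13 in the SKY libraries. For mt-Nd6 it was -0.63 in the FUN libraries and -0.27 in the SKY libraries. mt-Nd1, mt-Nd2 and mt-Nd3 were positive within both sets in all 5 tested types as well, mt-Nd1 in endothelial cells by only 0.029 and 0.038. mt-Nd4 was so in all but endothelial cells, where it had 0.034 in the FUN libraries and -0.042 in the SKY libraries. The values rested in part on HC mouse 1: without it the edgeR log2 fold changes in beta cells were 0.091 for mt-Nd1, 0.092 for mt-Nd4, 0.28 for mt-Nd2 and 0.35 for mt-Nd3. With age in weeks as a term they were 0.070, 0.068, 0.25 and 0.43 for the same genes, and diet, age and library set cannot be told apart with 5 mice. Plain library totals in place of TMM scaling moved the median of all genes by more than 0.1 in delta cells (to 0.16) and macrophages (to 0.13). Without a filter on low counts edgeR called mt-Nd2 in beta (adjusted p = 0.00585) and mt-Nd2 and mt-Nd3 in alpha cells.

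mt-Nd4l and mt-Nd4, which share a message, did not move together between mice. In beta cells the ratio of mt-Nd4l UMIs to mt-Nd4 UMIs was 0.0403 and 0.156 in the HC mice, against 0.101, 0.161 and 0.118 in the chow mice. HC mouse 1 was the lowest and HC mouse 2 sat next to the top of the chow mice, so the groups overlapped. The mean log2 ratio differed by -0.65 (HC minus chow, 2 against 3 mice; two-sided exact permutation p = 0.500), with -1.33 within the FUN libraries and 0.18 within the SKY libraries. In alpha cells it was 0.0518 and 0.161 in the HC mice, against 0.101, 0.158 and 0.122 in the chow mice. In delta cells it was 0.0418 and 0.166 in the HC mice, against 0.0936, 0.147 and 0.126 in the chow mice. HC mouse 1 was the lowest in all 5 types. In macrophages its ratio of 0.0639 was close to the 0.0723 of chow mouse 1, the other FUN library, and in endothelial cells the 2 were 0.0891 and 0.117.

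HC mouse 1 had the highest level of the 5 mice in all 5 tested types for mt-Nd1, mt-Nd2 and mt-Nd4, and likewise for mt-Co1, mt-Co2, mt-Atp6, mt-Co3 and mt-Cytb. mt-Nd3 was highest in that mouse in 3 of 5 types and lowest in 0. The other 4 messages departed further from this: mt-Nd4l was lowest in that mouse in 4 of 5 types, mt-Atp8 (an ATP synthase subunit that shares a message with mt-Atp6) in 4 of 5, mt-Nd6 in 3 of 5 and mt-Nd5 in 1 of 5. mt-Atp8 in beta cells had 23.5 and 49.9 CPM in the HC mice, against 25.8, 31.2 and 39.3 in the chow mice. Its lowest mouse was therefore the same as that of mt-Nd4l, and HC mouse 2 was the highest for both. Leaving out HC mouse 2, edgeR called mt-Nd4l lower in beta cells of HC mouse 1 (log2 fold change -1.19; adjusted p = 0.0273, where a lone HC sample is assumed to vary like the chow mice), and leaving out HC mouse 1 turned the value to 0.41. HC mouse 1 also had the highest mitochondrial share of all mice, 3.61% of a median cell against 2.01% to 2.79% in the other mice, and its part in these ratios was not tested.

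A ratio to a neighbour does not depend on library size or on how much of a cell's RNA codes for hormones. For mt-Nd2 and the next downstream protein gene, mt-Co1 (a subunit of cytochrome c oxidase), the ratio in beta cells was 0.313 and 0.310 in the HC mice, against 0.256, 0.220 and 0.283 in the chow mice. In alpha cells it was 0.409 and 0.358 in the HC mice, against 0.289, 0.233 and 0.326 in the chow mice. Delta cells had 0.313 and 0.314 in the HC mice, against 0.238, 0.199 and 0.260 in the chow mice. In each of the 3 endocrine types both HC mice were above all chow mice. Macrophages had 0.348 and 0.296 in the HC mice, against 0.265, 0.255 and 0.260 in the chow mice, and endothelial cells 0.380 and 0.381 in the HC mice, against 0.349, 0.288 and 0.370 in the chow mice, so the groups did not overlap there either. The mean log2 difference, HC minus chow, was 0.31 in beta, 0.45 in alpha, 0.44 in delta, 0.30 in macrophage and 0.19 in endothelial cells, and it was positive within both library sets in each type. The exact permutation p (two-sided, 2 against 3 mice) was 0.1 in delta cells and macrophages, the smallest the design allows, and 0.2 in the others; adjusted over the 40 ratios compared it was 0.741 in each, so the difference did not pass correction.

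**Figure D3:**
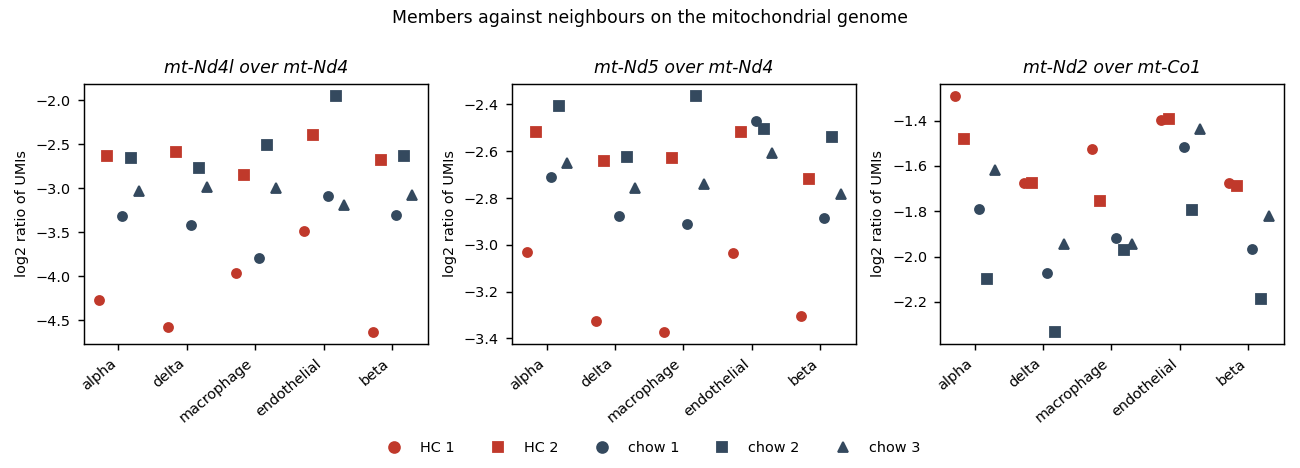
Log2 ratio of UMIs (vertical axes) of mt-Nd4l to mt-Nd4, mt-Nd5 to mt-Nd4 and mt-Nd2 to mt-Co1 in 5 cell types; each point is 1 mouse (red HC, dark blue chow). HC mouse 1 (red circle) is lowest in the first 2 panels in every type, and in the third both HC mice lie above the chow mice in every type.

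The ratio of mt-Nd5 to mt-Nd4, the gene before it, was 0.101 and 0.152 in the HC mice, against 0.135, 0.172 and 0.145 in the chow mice in beta cells, and HC mouse 1 was lowest in all 5 types. Other ratios separated in single types. In endothelial cells mt-Nd5 to mt-Cytb, the gene for cytochrome b, was 0.0602 and 0.0864 in the HC mice, against 0.109, 0.103 and 0.0946 in the chow mice, both HC mice being below all chow mice. mt-Nd6 to mt-Nd5 was 0.0372 and 0.0487 in the HC mice, against 0.0528, 0.0711 and 0.0569 in the chow mice in beta cells, with both HC mice lower. In endothelial cells the same ratio was 0.188 and 0.109 in the HC mice, against 0.0875, 0.0758 and 0.100 in the chow mice, with both HC mice higher, but mt-Nd6 rested there on only 9 and 11 UMIs in the HC mice and 7, 5 and 3 in the chow mice. In all, 8 of 40 ratios had groups that did not overlap, 5 of them mt-Nd2 to mt-Co1. Of the 10 splits of 5 mice into 2 and 3, 2 leave the groups without overlap. The observed share was thus no larger than such splits give on their own. The mt-Nd2 to mt-Co1 ratios of the 5 types come from the same 5 libraries and are no independent repeats. The smallest adjusted exact permutation p of the 40 was 0.741, so none passed.

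The diet effect was also compared between each cell type and beta cells as an interaction. edgeR called 0 of 7 members for alpha (0.236% of 12734 genes were called), 0 of 7 for delta (0.0078% of 12819), 0 of 7 for macrophages (0.0244% of 12309) and 0 of 7 for endothelial cells (0.089% of 12358). A single member, mt-Nd4l in alpha cells, had an unadjusted p under 0.05. Its diet effect differed from that in beta cells by 0.26 ± 0.100 on the log2 scale (edgeR adjusted p = 0.604). A difference of the diet effect between types was thus not detected, which does not show that the effects were equal.

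Nuclear genes of complex I lay mostly on the other side of 0 in the endocrine cells. Of 36 nuclear subunits (35 tested in macrophages and endothelial cells), edgeR and DESeq2 called 0 in each of the 5 types for diet, and at an unadjusted edgeR p under 0.05 there was 1 each in beta, alpha and macrophage cells and 0 in delta and endothelial cells. In beta cells 8 had positive and 28 negative fold changes (median -0.031, beside -0.0036 over all genes), and in alpha cells 2 were positive and 34 negative (median -0.12). In delta cells the split was 12 and 24. In endothelial cells the split was 18 and 17. The 16 detected assembly factors, which build complex I without staying in it, had 0 calls by either tool in each type (0 at an unadjusted p under 0.05; only 1 was tested in macrophages and 5 in endothelial cells) and, in beta cells, a median of -0.052. Among 33 genes that transcribe, process or stabilise mitochondrial RNA 0 were called by either tool (32 tested in beta, 33 in alpha, 32 in delta, 3 in macrophage and 6 in endothelial cells), with 2 in beta, 1 in alpha, 3 in delta and 0 in macrophage and endothelial cells at an unadjusted edgeR p under 0.05. Fastk, whose mitochondrial form is needed for mt-Nd6 RNA, had a log2 fold change of 0.27 ± 0.10 in beta cells (edgeR adjusted p = 0.950). Lrpprc, which keeps heavy-strand messages stable, had 0.087 ± 0.12, Tfam, the DNA-packaging transcription factor, -0.068 ± 0.12, and Polrmt, the RNA polymerase, 0.058 ± 0.21.

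Between cell types most members were called lower than in beta cells. Counts were compared within mice, with edgeR's TMM scaling, which sets a trimmed mean of the gene ratios to 0; the medians of all genes were then -0.0024 in alpha, -0.0098 in delta, -0.16 in macrophage and -0.25 in endothelial cells over beta cells. In alpha cells 7 of 7 members were called lower (31.9% of 11740 genes were), with -0.73 ± 0.051 for mt-Nd4 at the most and -0.30 ± 0.050 for mt-Nd1 at the least (log2 fold change ± SE, n = 5 mice; edgeR adjusted p = 3.07e-24 and 1.37e-07). In delta cells 6 of 7 were lower (26.4% of 11755), with -1.004 ± 0.045 for mt-Nd4 and -1.003 ± 0.049 for mt-Nd5, while mt-Nd6 was at -0.030 ± 0.10 (edgeR adjusted p = 0.833). In macrophages mt-Nd2, mt-Nd4l, mt-Nd4 and mt-Nd5 were lower, 4 of 7 (21.3% of 11121), with -0.58 ± 0.078 for mt-Nd4 (edgeR adjusted p = 1.07e-12). mt-Nd1 (-0.12 ± 0.085), mt-Nd3 (-0.13 ± 0.12) and mt-Nd6 (-0.51 ± 0.33) did not pass there, and mt-Nd1 and mt-Nd3 lay slightly above the median gene. In endothelial cells 6 of 7 were lower (37.3% of 11330), with -1.77 ± 0.089 for mt-Nd4 and -1.08 ± 0.090 for mt-Nd1, and mt-Nd6, at -0.51 ± 0.25, did not pass (edgeR adjusted p = 0.0684). The 6 other mitochondrial messages were lower in all 4 comparisons, with medians of -0.83, -0.97, -0.51 and -1.68 in the order alpha, delta, macrophage, endothelial.

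The direction depended on the scale. Hormone messages filled 43.6% to 47.3% of the UMIs in alpha, 36.5% to 49.2% in delta, 16.9% to 30.2% in macrophage and 0.969% to 2.70% in endothelial cells, against 64.8% to 72.1% in beta cells. When counts were scaled by plain library totals, the median of all genes moved to 0.70 in alpha, 0.84 in delta, 0.60 in macrophage and 1.35 in endothelial cells over beta cells. In the same order 75.8%, 84.6%, 40% and 65.2% of genes were then called higher, and 8.14%, 3.12%, 5.41% and 11.8% lower. On that scale edgeR called mt-Nd1 (0.41) and mt-Nd3 (0.37) higher in alpha cells, mt-Nd6 (0.85) higher in delta cells, and mt-Nd1 (0.64), mt-Nd2 (0.31) and mt-Nd3 (0.63) higher in macrophages. In endothelial cells mt-Nd1 (0.55), mt-Nd2 (0.31), mt-Nd4l (0.33) and mt-Nd6 (1.11) were called higher. No member was called lower on it. On the plain scale every member except mt-Nd6 in delta cells and mt-Nd1 and mt-Nd3 in macrophages lay below the typical gene of its comparison.

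With the 7 hormone genes left out of the total, the summed level of the members was 9256 ± 1922 CPM in alpha, 7948 ± 1514 in delta, 7757 ± 1211 in macrophage and 5282 ± 414 in endothelial cells, against 14972 ± 2162 in beta cells (SD, n = 5 mice). Beta cells were thus the highest once their hormone messages were set aside, and the step down to alpha cells was larger than either SD. Without the mouse as a block, mt-Nd1, mt-Nd2, mt-Nd3 and mt-Nd4l in alpha cells and mt-Nd4l in macrophages no longer passed, at nearly the same fold changes.

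**Figure D4:**
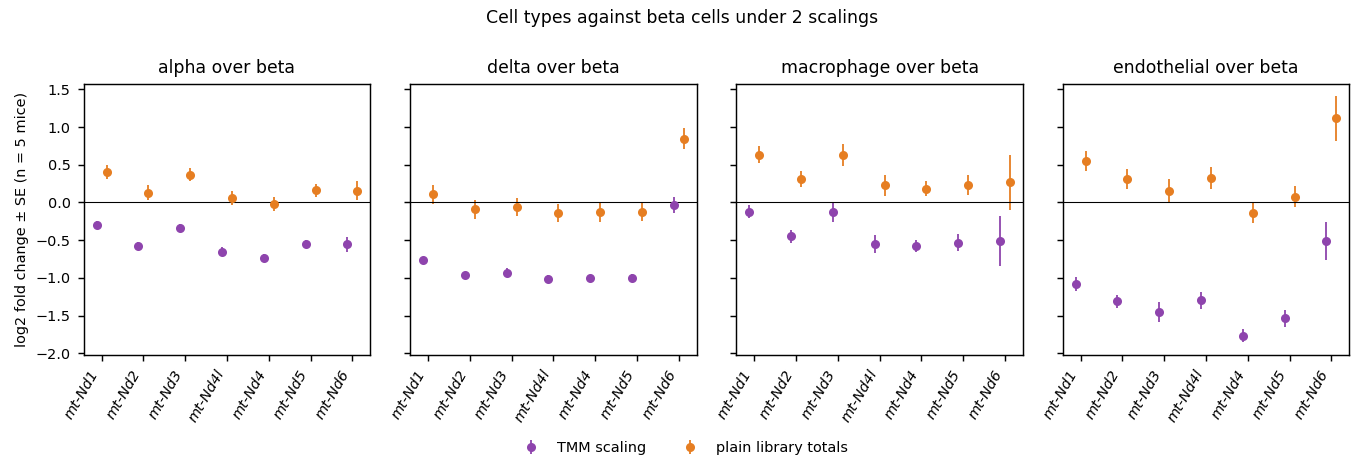
Log2 fold change (vertical axis, ± SE, n = 5 mice) of each member in alpha, delta, macrophage and endothelial cells over beta cells, with TMM scaling (purple) and with plain library totals (orange). The purple points lie below 0, down to -1.77 for mt-Nd4 in endothelial cells, whereas most orange points lie at or above 0, up to 1.11 for mt-Nd6 in endothelial cells.

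Within the 13 mitochondrial messages the 7 members made up a share that does not depend on this scaling. It was 17.99% to 19.4% in alpha, 15.4% to 17.2% in delta, 15.9% to 19.0% in macrophage and 17.0% to 20.0% in endothelial cells, against 15.6% to 17.3% in beta cells (5 mice each). The alpha range lay wholly above the beta range, and the other ranges overlapped it.

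mt-Nd6 stood higher beside mt-Nd5 in delta and endothelial cells than in beta cells of the same mouse. Its message comes from the light strand, and the annotated gene ends opposite the end of mt-Nd5 printed above. mt-Nd6 has 0 runs of 6 or more A inside the gene. Where the oligo(dT) primer sat on its message was not tested, so its UMIs need not measure the amount of that message. The mean level of mt-Nd6 was 30.4 ± 8.71 CPM in endothelial, 26.1 ± 8.92 in delta, 15.9 ± 6.26 in macrophage, 15.5 ± 3.18 in alpha and 13.9 ± 3.03 in beta cells (SD, n = 5 mice). The step between delta cells and macrophages exceeded both SDs, and the steps between other neighbours in the order did not. In delta cells the UMIs of mt-Nd6 per UMI of mt-Nd5 were 0.0657, 0.148, 0.104, 0.112 and 0.106 in HC mice 1 and 2 and chow mice 1, 2 and 3, against 0.0372, 0.0487, 0.0528, 0.0711 and 0.0569 in beta cells of the same mice. Delta cells were higher in 5 of 5 mice. The log2 ratio differed by 0.99 ± 0.36 (delta minus beta, SD over 5 mice; exact sign-flip permutation p = 0.063, two-sided, the smallest 5 mice allow; 0.143 adjusted over 32 ratios).

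In endothelial cells the same difference was 1.02 ± 0.83, also positive in 5 of 5 mice (exact permutation p = 0.063, adjusted 0.143) but with a range of 0.091 to 2.33 on counts of 3 to 11 UMIs. In alpha cells it was -0.0073 ± 0.24 and in macrophages -0.10 ± 0.57, with mice on both sides of 0. The cells named delta came mostly from 2 clusters. Insulin 2 message made up 9705 CPM in the cluster led by Sst, Ly6h and Shisal2b and 213357 in the cluster led by Sst, Ly6h and Rbp4, with 211529 and 55705 CPM of somatostatin and a median of 2407 and 8678 UMIs per cell. Glucagon message made up 5373 CPM in the first and 81074 in the second. The second held 382 and 80 cells in the HC mice, against 257, 294 and 121 in the chow mice. The delta values rest on summed UMIs, to which the second cluster gave a share that differed by mouse. Of the mt-Nd5 UMIs of delta cells it held 722 of 1004 in HC mouse 1 and 162 of 561 in HC mouse 2. In chow mice 1, 2 and 3 it held 777 of 1112, 638 of 959 and 206 of 489. In the first (2229 cells) the log2 ratio of mt-Nd6 to mt-Nd5 was -2.77 ± 0.21 and lay 1.09 to 1.83 above beta cells of the same mouse. In the second (1134 cells) it was -3.78 ± 0.44, 0.15 to 1.02 above beta cells. The ratio in beta cells was -4.26 ± 0.34. The difference from beta cells was thus larger in the cluster with less insulin message, with no overlap of the 2 ranges. Doublets were not removed. The part of mixed droplets in the second cluster, and of that cluster in the other delta values, was not tested.

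**Figure D5:**
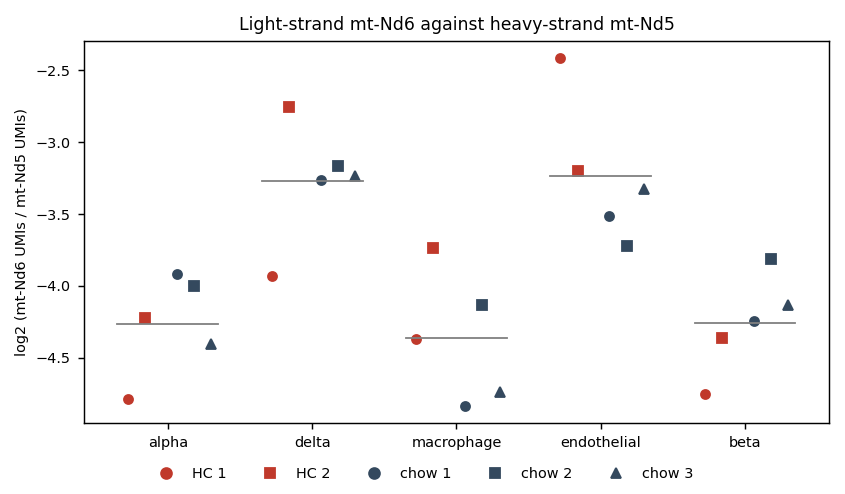
Log2 ratio of mt-Nd6 UMIs to mt-Nd5 UMIs (vertical axis) in each cell type; each point is 1 mouse (red HC, dark blue chow) and the grey line is the mean of 5 mice. Delta (-3.27) and endothelial cells (-3.23) have higher means than beta cells (-4.26).

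The heavy-strand neighbours differed less. The ratio of mt-Nd2 to mt-Nd1 was lower than in beta cells in all 4 other types and in 5 of 5 mice of each. The log2 difference was -0.28 ± 0.077 in alpha, -0.20 ± 0.066 in delta, -0.33 ± 0.13 in macrophage and -0.23 ± 0.10 in endothelial cells (type minus beta, SD over 5 mice; exact permutation p = 0.063 each, adjusted 0.143). In alpha cells the ratio was 1.17, 1.20, 1.04, 0.877 and 1.19 in HC mice 1 and 2 and chow mice 1, 2 and 3, against 1.32, 1.45, 1.24, 1.15 and 1.45 in beta cells. mt-Nd5 to mt-Cytb was higher in alpha cells in 5 of 5 mice (0.40 ± 0.080) and in macrophages in 5 of 5 (0.22 ± 0.095). mt-Nd3 to mt-Co3, the gene before it, was higher in alpha cells in 5 of 5 mice (0.28 ± 0.098). mt-Nd2 to mt-Co1 was higher in 5 of 5 mice in alpha (0.21 ± 0.11) and endothelial cells (0.36 ± 0.071). Of 32 ratios, 14 had all 5 mice on the same side of 0, and none passed correction because 5 mice cannot give an exact p below 0.063. For mt-Nd4l to mt-Nd4 the difference from beta cells of the same mouse was 0.082 ± 0.16 in alpha, -0.0042 ± 0.11 in delta, 0.042 ± 0.42 in macrophage and 0.44 ± 0.48 in endothelial cells. It was positive in 3 of 5 mice in the first 3 types and in 4 of 5 in endothelial cells, where it ran from -0.11 to 1.15 (exact permutation p = 0.125, adjusted 0.222).

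Nuclear complex I subunits were more often called lower than higher against beta cells with TMM scaling. edgeR called 3 of 36 higher and 21 lower in alpha cells (median -0.18), where 30.8% of all genes were higher and 31.9% lower. In delta cells it called 1 higher and 11 lower (median -0.082), beside 25.7% and 26.4% of all genes, so the count of lower subunits there was near the background. Macrophages had 1 higher and 12 lower (median -0.18), beside 20.4% and 21.3% of all genes, and endothelial cells 1 higher and 30 lower (median -0.75), beside 26.2% and 37.3%. The medians of the 7 members in the same comparisons were -0.56, -0.97, -0.51 and -1.31, and those of all genes -0.0024, -0.0098, -0.16 and -0.25. With plain totals the nuclear list turned to 30, 35, 25 and 30 higher and 1 lower in each, with medians of 0.53, 0.79, 0.58 and 0.87. On that scale 75.8%, 84.6%, 40% and 65.2% of all genes were called higher, with medians of 0.70, 0.84, 0.60 and 1.35. The share of the list called higher was above that of all genes in each comparison, while its median lay below theirs. Ndufa6, an accessory subunit, was higher in alpha cells, at 234 ± 31.0 against 86.3 ± 4.06 CPM in beta cells (0.72 ± 0.053; edgeR adjusted p = 8.53e-23). Ndufa8, another accessory subunit, was higher in endothelial cells (0.60 ± 0.11).

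Of the 16 assembly factors 1 was higher and 9 lower in alpha cells (30.8% and 31.9% of all genes were). In delta cells 1 was higher and 4 lower, beside 25.7% and 26.4% of all genes. Macrophages had 0 higher and 2 lower (20.4% and 21.3% of all genes), and endothelial cells had 0 higher and 4 lower (26.2% and 37.3%), both under the background. Of the genes that act on mitochondrial RNA and DNA, 6 of 33 were higher and 4 lower in alpha cells. Of 32 tested in the other types, 3 were higher and 6 lower in delta cells, 1 and 3 were so in macrophages, and endothelial cells had 2 and 9. All of these counts were below the shares of all genes called in the same direction. Lrpprc differed by type: it was higher in alpha cells (0.34 ± 0.088; edgeR adjusted p = 9.64e-04) and lower in delta cells (-0.77 ± 0.11; edgeR adjusted p = 1.28e-06), macrophages (-1.28 ± 0.32) and endothelial cells (-2.81 ± 0.34). On plain totals the delta value was 0.043. Its partner Slirp was higher in delta cells (0.33 ± 0.079; edgeR adjusted p = 9.15e-04) and did not pass in the other 3. Grsf1, which binds light-strand RNA in human mitochondria, was lower in delta (-0.27 ± 0.086; edgeR adjusted p = 0.0115) and endothelial cells (-0.99 ± 0.26) with TMM scaling, but 0.58 and 0.62 with plain totals. Fastk was lower in alpha (-0.29 ± 0.085), delta (-0.52 ± 0.087) and macrophage cells (-0.78 ± 0.29), and turned to 0.42 and 0.34 in alpha and delta cells with plain totals. Ppargc1a, a coactivator of mitochondrial biogenesis, was higher in alpha cells, at 2.02 against 0.133 CPM in beta cells (log2 fold change 3.13 ± 0.43; edgeR adjusted p = 4.64e-10). Tfam and Polrmt did not pass in alpha, delta or macrophage cells.

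From cell to cell the abundant members varied together. Among beta cells the correlation of the shares of mt-Nd2 and mt-Nd4 had a median of 0.671 over the 5 mice (0.633 to 0.732), that of mt-Nd1 and mt-Nd4 0.543, and that of mt-Nd4l and mt-Nd4 0.416. In alpha cells, which were shallower, mt-Nd2 and mt-Nd4 had 0.297. Cells of a mouse share a library and their shares have a common denominator, so these are descriptions. Over the 25 sums of 5 types and 5 mice, the members most like the summed level were mt-Nd2 (Pearson r = 0.956 on log2 values), mt-Nd1 (0.941) and mt-Nd4 (0.914), which are part of the sum, while mt-Nd5 had 0.519 and mt-Nd4l -0.300. Outside the mitochondrial genome, the 5 of 1959 genes with the most similar pattern were Calr, a calcium-binding chaperone (0.660), Pip4p1, a lipid phosphatase (0.651), BC005537 (0.638), Eef2, an elongation factor (0.634), and Atp6ap1, a proton-pump accessory protein (0.631). The 25 sums come from 5 libraries and the hormone share enters each, so the values describe likeness only.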

How the data were processed

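Single-cell 3 prime libraries (10x Genomics chemistry, version 3) were made from hand-picked islets of 5 NOD.SCID mice. The authors deposited a matrix of raw UMI counts per gene and barcode for each mouse, made with Cell Ranger 4.0.0 on mm10, per the submitters' processing notes. How reads that map to several places were handled is not given in the sources used here, nor is the strand setting of the counting. The members and gene lists were chosen with earlier results of these data known.

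Cells with at least 1000 UMIs, at least 500 genes and at most 15% mitochondrial UMIs were kept, which left 4821, 4413, 3656, 5122 and 4746 cells in HC mice 1 and 2 and chow mice 1, 2 and 3. Cells were clustered without mitochondrial genes (Leiden, resolution 1, igraph 0.11.9), clusters were named from fixed markers, and no doublets were removed in the main analysis. The clusters left unnamed held 2388 cells. Counts were summed per mouse and type where every mouse had at least 20 cells. Diet effects, differences between types (mouse as block, since both types come from the same animal) and their interaction were fitted with edgeR 4.0.16 in R 4.3.3 (quasi-likelihood test with robust options after filterByExpr and TMM scaling; two-sided p adjusted by Benjamini-Hochberg over every gene tested, threshold 0.05). SEs are the fold change divided by the root of its F statistic. DESeq2 1.42.0 was an alternative. Ratios of neighbours were compared by exact permutation over mice. Nothing in the labels gives litters or cages, so the diet p-values are set against the spread between these animals. With the mouse as a block, the p-values between types are set against variation of the difference from mouse to mouse. For diet and for types alike, edgeR draws its estimate of that variation partly from the other tested genes. The p-values therefore do not rest on the spread of the single gene alone. On simulated counts the edgeR step recovered 52.5% of 2-fold and 96.9% of 4-fold changes for diet in beta cells (11829 genes) and 22.6% and 75.8% in endothelial cells (4141 genes). The simulation took the spread between mice from a fixed formula and held no difference between library sets. Its rates can therefore be too high for these data.

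Named genes are the 13 mitochondrial messages, up to 5 called list genes per direction (the 2 of smallest p where none was called), 6 fixed regulators (Lrpprc, Slirp, Fastk, Grsf1, Polrmt, Tfam) and the 5 genes most like the summed level; the text gives a part of the list genes. Of 17 assembly factors, Coa1 was not among the matrix symbols. Sequences come from GENCODE vM21 transcripts (GRCm38), and nuclear copies were found with BLAST 2.17.0 (at least 90% identity over at least 100 bases). Alternatives covered cell filters, clustering, doublets, scaling, the low-count filter, library set, age and leaving out each mouse.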

Additional observations from a re-analysis of the deposited data

How the results depend on the processing

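The p-values of the diet comparison rest on 2 against 3 mice, diet is entangled with age and library set, and mt-Nd6 in macrophages and endothelial cells rests on a handful of UMIs. No paired analysis was possible because the replicate numbers of the HC and chow mice follow accession order and pair no animals. Blocking by library set, which crosses diet, was possible, and its values stand with the other alternatives; the cell type comparisons have the mouse as a block.

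The number of genes that edgeR called for diet in beta cells was 1, against 13 with DESeq2, 42 without a filter on low counts, 5 with plain library totals, 15 with library set as a term, 8 with age as a term and 4 with HC mouse 2 counted as chow by its title. In alpha cells it was 6, against 2 with DESeq2, 26 without the filter and 1 with plain totals. In delta cells it was 0 (DESeq2 also 0; 2 of the 7 members had an unadjusted p under 0.05), against 3 with mitochondrial genes kept in the clustering, 7 without the filter, 9 with age and 1 by the title. In macrophages it was 2, against 0 at 2000 or more UMIs per cell, 1 with mitochondrial genes kept, 0 without the 6% of cells with the highest doublet scores (chosen after seeing the data), 11 without the filter, 0 with hormone genes removed, 5 with library set, 7 with age and 0 by the title. In endothelial cells it was 2, against 8 without the filter, 7 with library set, 15 with age and 31 by the title. Of the members, the unfiltered fit called 1 in beta and 2 in alpha cells, and the cause was not tested.

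Diet directions turned most often with age as a term. It gave 0.16 for mt-Nd4l in beta cells; -0.068 for mt-Nd1, 0.14 for mt-Nd4l, -0.10 for mt-Nd4 and 0.12 for mt-Nd6 in delta cells; 0.28 for mt-Nd4l and -0.11 for mt-Nd4 in macrophages; and -0.052 for mt-Nd1, 0.15 for mt-Nd4l and -0.12 for mt-Nd4 in endothelial cells. mt-Nd5 in beta cells, at -0.0029, turned to 0.00023 at 2000 or more UMIs, 0.0011 at Leiden resolution 0.5, 0.055 with plain totals, 0.0014 with hormone genes removed, 0.0059 with library set and 0.043 with age. mt-Nd4l in alpha cells turned to -0.0043 with at most 10% mitochondrial UMIs and -0.86 by the title. Plain totals gave 0.12 for mt-Nd5 and 0.051 for mt-Nd6 in delta cells. Keeping mitochondrial genes in the clustering gave 0.0011 for mt-Nd5 in delta cells and 0.082 for mt-Nd4l in macrophages, and library set gave -0.0047 for mt-Nd4 in endothelial cells. The cause of these turns was not tested. Over the members outside the single-mouse omissions, 423 diet values kept direction and side of the threshold, 23 turned and 3 came to pass it.

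Leaving out each mouse in turn gave 0 to 13 genes called for diet in beta, 0 to 8 in alpha, 0 to 7 in delta, 0 to 9 in macrophage and 0 to 20 in endothelial cells, and 0 to 1 member in beta cells. mt-Nd4l ranged from -1.19 to 0.41 in beta, -0.72 to 0.49 in alpha, -1.04 to 0.34 in delta, -0.49 to 0.14 in macrophage and -0.72 to 0.26 in endothelial cells. mt-Nd5 ranged from -0.12 to 0.11 in beta cells. mt-Nd6 ranged from -0.59 to 0.060 in alpha and -0.80 to 0.44 in delta cells. mt-Nd1 ranged from -0.049 to 0.54 in delta and -0.021 to 0.14 in endothelial cells, and mt-Nd4 from -0.13 to 0.48 in delta, -0.076 to 0.42 in macrophage and -0.10 to 0.16 in endothelial cells. The interaction called 18 to 25 genes in alpha (30 with all mice), 0 to 4 in delta (1), 1 to 13 in macrophage (3) and 4 to 13 in endothelial cells (11). Diet ratios without overlap numbered 9 to 30 of 40 (8 with all mice), since fewer mice overlap less. Against beta cells mt-Nd6 in delta cells ranged from -0.16 to 0.11.

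Against beta cells, plain library totals (added after seeing the data) turned 6 members in alpha cells, mt-Nd1 to 0.41, mt-Nd2 to 0.13, mt-Nd3 to 0.37, mt-Nd4l to 0.058, mt-Nd5 to 0.16 and mt-Nd6 to 0.16, with 2 calls in place of 7. In delta cells they turned mt-Nd1 to 0.11 and mt-Nd6 to 0.85, with 1 member and 10316 genes called in place of 6 and 6119. In macrophages they gave 0.64 for mt-Nd1, 0.31 for mt-Nd2, 0.63 for mt-Nd3, 0.23 for mt-Nd4l, 0.18 for mt-Nd4, 0.23 for mt-Nd5 and 0.27 for mt-Nd6. In endothelial cells they gave 0.55, 0.31, 0.16 and 0.33 for mt-Nd1, mt-Nd2, mt-Nd3 and mt-Nd4l, 0.078 for mt-Nd5 and 1.11 for mt-Nd6. Plain totals with hormone genes removed called 7 members lower in macrophages, and 2000 or more UMIs per cell left 2748 genes called there in place of 4630. Without the replicate block 3 members were called in alpha cells: mt-Nd1 (-0.30), mt-Nd2 (-0.56), mt-Nd3 (-0.32) and mt-Nd4l (-0.69) no longer passed, nor did mt-Nd4l in macrophages (-0.57). Summed levels without hormone genes were 9256 CPM in alpha, 7948 in delta, 7757 in macrophage and 14972 in beta cells. Alpha cells have no value at Leiden resolution 0.5, where their cluster stayed unnamed, and endothelial cells none at 2000 or more UMIs.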

Other observations

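Within beta cells the summed level of the 7 members went with the depth of the cell. From the quartile of beta cells with the fewest UMIs to the quartile with the most, it was 8572, 7063, 6120 and 5640 CPM in HC mouse 1 and 5919, 5023, 4127 and 3435 in HC mouse 2. It was 7761, 6622, 4631 and 4362 in chow mouse 1, 5102, 3992, 3072 and 3051 in chow mouse 2, and 5432, 4462, 3421 and 3086 in chow mouse 3. Each of the 5 mice had its highest level in the shallowest quartile and its lowest in the deepest. The level and the depth share the UMI total, so this is a description.

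Among clusters that were not named, the cells led by Ppy, Pyy and Tspan8 had 4142 ± 1157 CPM of the 7 members (SD over 5 mice), those led by Glp1r, Atf5 and Ucn3 had 5332 ± 1589, and those led by Spp1, Wfdc18 and Clu had 5852 ± 906. The cells led by the digestive enzyme genes Try5, Ctrb1 and Prss2 had 3042 ± 1514, and those led by Rgs5, Acta2 and Myl9 had 6374 ± 1096. Both clusters had cells in all 5 mice, but only 3 mice of each reached 20 cells and entered these values. Within beta cells the cluster led by Npy, Ins1 and Pcsk1 had 3734 ± 981 and the cluster led by Car15, Ucn3 and Ins2 had 5422 ± 1400 (SD over 5 mice). The SD over mice was as large as most of these differences, but the clusters come from the same mice. The Npy, Ins1 and Pcsk1 cluster was below the Car15, Ucn3 and Ins2 cluster in each of the 5 mice. In HC mouse 1 they had 5135 against 7245 CPM, and in chow mouse 2 they had 2753 against 4067. The first was also deeper, with a median of 10234.5 against 7158 UMIs per cell. The other clusters were not compared within mice.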
